A study of Homo sapiens with 39 samples.

Results

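RNA was compared between 3 libraries of C4-2B cells treated with olaparib at 5 µM for 1 day and 3 libraries of C4-2B cells given DMSO, the vehicle, for 1 day. These 6 of the 39 libraries of the series were taken by their titles and treatment labels, and no measured value chose them. The cells grew in RPMI 1640 with serum, were plated and received drug or vehicle on the following day, and the labels name no other agent for either group. Within the same time course, 3 libraries with olaparib at 1 µM for 1 day served to read the dose step, and 3 libraries each of DMSO and of olaparib at 5 µM after 5 days served to read the later time point. The series also holds 3 libraries with olaparib at 1 µM after 5 days and 21 libraries of other treatments. All groups come from 1 cell line, and the labels do not say whether replicates were separate cultures, so p-values measure the spread between these libraries, which may be technical.

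Olaparib is a PARP inhibitor (PARPi). It blocks the catalytic site of PARP1 and PARP2, enzymes that mark DNA breaks with ADP-ribose chains, and holds the enzymes on DNA, where replication forks run into them. Breaks and stalled forks activate the ATM and ATR kinases, and p53, when stabilized, drives transcription of genes for cell-cycle arrest, repair and death. C4-2B is a castration-resistant derivative of the LNCaP prostate cancer line. The comparison addresses how the RNA of these cells responds to a high PARPi dose within the first day, and whether androgen response genes take part.

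The 6 libraries held between 34214001 and 42223465 counts. All 10 luminal prostate markers were detected, with summed levels between 4010 and 4100 CPM (counts relative to the TMM-scaled library size) in DMSO and between 3600 and 3670 CPM at 5 µM, while basal markers summed to at most 0.826 CPM. CD3E, DCN and LUM had no count in either group. Protein-coding genes of the mitochondrial genome took 6.13% to 6.31% of counts in DMSO and 7.36% to 7.51% at 5 µM. In replicate 3 at 5 µM, RN7SL1 and RN7SL2, near-identical copies of the noncoding RNA of the signal recognition particle, held 530 and 733 CPM, against at most 61.1 CPM in the other 8 libraries of day 1. Chi-square per degree of freedom, a measure of how far the counts of replicates differ, was 5.41 and 5.52 for the pairs with this library, against 2.11 to 3.17 for other replicate pairs of day 1. Distances between libraries over log2 CPM were 61 ± 3.12 within DMSO (SD, 3 pairs) and 82.6 ± 2.36 between DMSO and 5 µM (SD, 9 pairs).

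After 1 day at 5 µM olaparib, the RNA of most p53 target genes was higher than in DMSO, and that of most mitotic genes and, to a smaller extent, of genes for ribosome biogenesis was lower. Of 18502 genes tested, 8333 passed the threshold of an adjusted p under 0.05 (45.0%), with 3997 higher (21.6%) and 4336 lower (23.4%). Most of these changes were small, with a median absolute log2 fold change of 0.25 among the genes past the threshold. Changes of at least 1 on the log2 scale were found for 659 genes, and 581 of these were higher and 78 lower. Scaling by total count moved the median of all genes by 0.048. Then 5139 genes were higher, which is 60.3% of those past the threshold, and 3380 were lower. Levels of the 6 libraries did not overlap between the groups for 51.6% of genes. In the plot of fold change against adjusted p, most p53 targets lay in the upper right and most mitotic genes in the upper left.

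**Figure D1:**
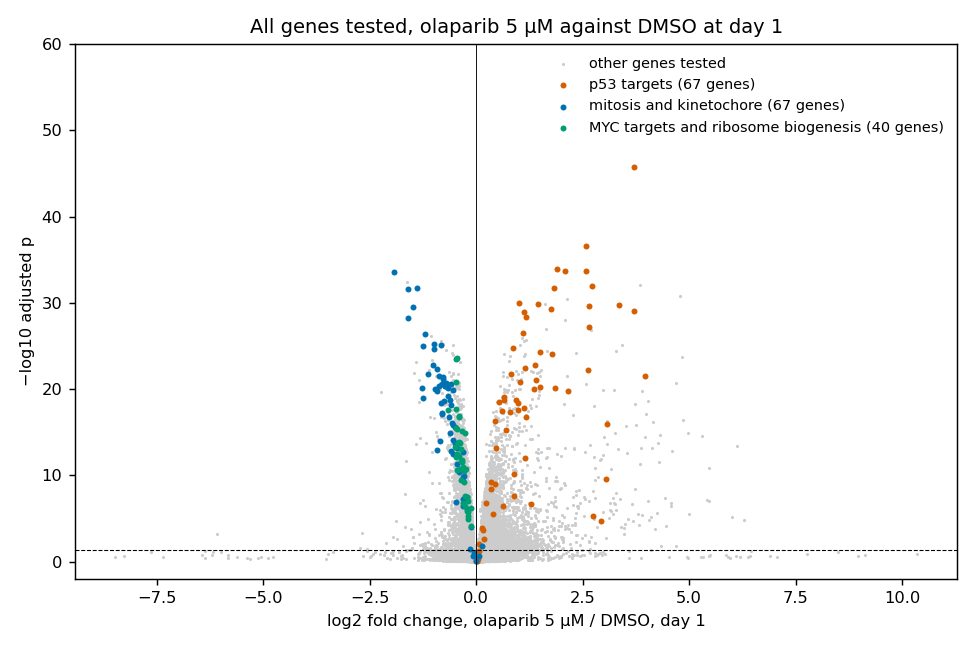
Each point is 1 gene tested, with the log2 fold change of olaparib 5 µM over DMSO at day 1 on the x axis and −log10 of the adjusted p on the y axis. The dashed line marks an adjusted p of 0.05, coloured points are members of 3 gene lists, and F8A2 and F8A3, near-identical copies, are left out. Of 67 p53 targets 62 lie to the right above the line, and of 67 mitotic genes 62 lie to the left above it.

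The p53 targets were read first. Among 67 members tested of 69, 62 were higher and none lower, against 21.6% higher among all genes, and the median log2 fold change was 1.13, against 0.02 over all genes. The members that did not pass, PERP, POLK, TSGA10, SYTL1 and TOB1, had log2 fold changes between 0.0026 and 0.06. The other 2 members were too low to be tested. CDKN1A (chr6:36676460-36687337, plus strand, GRCh38), which encodes the CDK inhibitor p21, had 55.8, 54.3 and 53.9 CPM in DMSO, 196, 201 and 201 CPM at 1 µM, and 725, 706 and 719 CPM at 5 µM. The groups were far apart, each dose lay above the one before, and replicates stayed close together. The gene overlaps DINOL on the other strand, and whether counting used strand is not given in the sources used here. CDKN1A was 13.1-fold higher at 5 µM than in DMSO (log2 fold change 3.71 ± 0.025 SE, adjusted p = 1.97e-46).

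Single members were picked as examples of their roles after their values were seen. MDM2, the ubiquitin ligase that degrades p53, had 197, 185 and 189 CPM in DMSO and 410, 419 and 423 CPM at 5 µM, a 2.19-fold difference (adjusted p = 1.18e-29). PPM1D, a phosphatase that switches off damage signaling, was 2.67-fold higher, and CCNG1 had a log2 fold change of 0.53. BTG2, an antiproliferative gene, had 16.1, 14.7 and 15.1 CPM in DMSO and 89.9, 87.2 and 95.6 CPM at 5 µM, which is 5.95-fold higher. GADD45A was 3.44-fold higher and SFN, which encodes 14-3-3 sigma, was 8.4-fold higher.

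DDB2, which recognizes ultraviolet lesions, had 24.9, 23.4 and 24.6 CPM in DMSO and 104, 103 and 105 CPM at 5 µM. No library of one group came near the other, and the fold difference was 4.28 (adjusted p = 2.09e-34). XPC, another lesion sensor, was 2.24-fold higher and RRM2B, a ribonucleotide reductase subunit, was 2.05-fold higher. FDXR, a mitochondrial reductase, was 5.96-fold higher, and SESN1, an antioxidant and mTORC1 regulator, was 3.39-fold higher.

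GDF15, a stress cytokine, had 21.6, 20.1 and 23.7 CPM in DMSO and 287, 284 and 287 CPM at 5 µM, which is 13.1-fold higher (adjusted p = 9.32e-30). FAS, a death receptor gene that overlaps ACTA2 on the other strand and STAMBPL1 on its own, had 2.84, 2.57 and 2.57 CPM in DMSO and 26.5, 26.3 and 28.7 CPM at 5 µM. BBC3, which encodes the BH3-only protein PUMA, had 2.19, 2.03 and 1.92 CPM in DMSO and 12.6, 13.1 and 12.4 CPM at 5 µM. All 3 genes were separated between groups, and FAS and BBC3 were 10.2-fold and 6.19-fold higher. BAX, the pore-forming effector, was 2.21-fold higher, PMAIP1, which encodes NOXA, 1.54-fold, and the receptor gene TNFRSF10B 1.37-fold. TRIM22, an antiviral E3 ligase gene and p53 target, had the largest log2 fold change of the list, 3.96 ± 0.153.

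**Figure D2:**
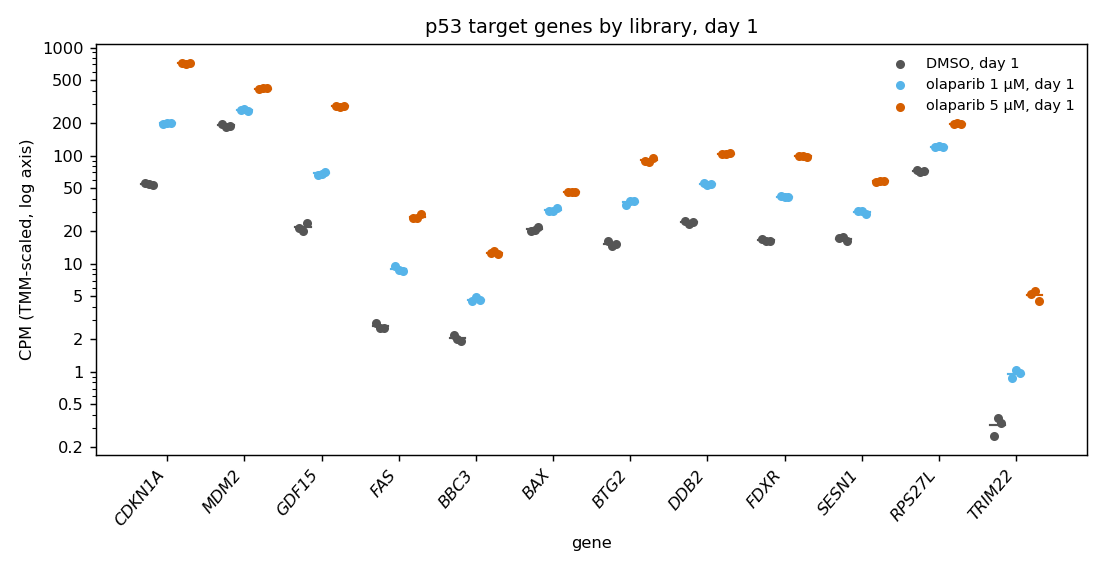
CPM of 12 p53 targets (x axis) in the libraries of day 1 on a log axis. Each point is 1 library, each bar the mean of 3 libraries, and colours mark DMSO, 1 µM and 5 µM olaparib. CDKN1A steps from 55.8 CPM or less in DMSO to at least 706 CPM at 5 µM with 1 µM between them.

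In the wider list of death genes (BCL2 family, caspases and death receptors), 14 of 29 tested members were higher (48.3%, against 21.6% of all genes) and 5 were lower (17.2%, against 23.4%), with a median of 0.13. Only 2 were lower without replicate 1 of DMSO or with scaling by total count, which left 3380 of all 18502 genes lower. CASP10, an initiator caspase, was 2.27-fold higher, and the 5 lower members included FADD, the adaptor of death receptors, at -0.27, and MCL1, an anti-apoptotic member, at -0.09. BCL2 had a log2 fold change of -0.24 and did not pass the threshold (adjusted p = 0.0689).

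Outside the list, genes were named by a rule that took the largest rises among those with at least 100 mean counts at 5 µM, so low DMSO levels and groups that lie apart follow from the choice. CXCR2, a chemokine receptor, had 0.17, 0.0708 and 0.104 CPM in DMSO (3 to 6 counts) and 3.58, 3.76 and 2.7 CPM at 5 µM (100 to 140 counts), a log2 fold change of 4.86 ± 0.276 (adjusted p = 3.62e-17). SULF2, an extracellular heparan sulfatase, rose from at most 0.416 CPM to at least 9.19 CPM and was 28.7-fold higher. CEL, a bile salt-activated lipase, had 1.14, 1.11 and 0.936 CPM in DMSO and 28.5, 30 and 29 CPM at 5 µM. CCDC60, CEACAM1, UBASH3B, ANK1, GDNF, APOBEC3H and FAXDC2 had log2 fold changes between 3.84 and 4.70. CEACAM1 encodes an adhesion receptor, ANK1 a membrane-skeleton adaptor, GDNF a ligand of the RET receptor complex and APOBEC3H a cytidine deaminase. F8A3 also met the rule, with no count in DMSO and 4.39 to 5.71 CPM at 5 µM, while its near-identical copy F8A2 showed the opposite with 5.71 to 5.9 CPM in DMSO and no count at 5 µM, so the assignment of their shared reads is uncertain.

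The promoters of leading members were searched for the p53 response element (a pair of adjoining p53 half-sites with no spacer, both strands, C and G of each core kept and at most 2 other letters off). Windows ran from 250 bases before to 50 bases after each RefSeq start (GRCh38.p14), and a match is a description of letters, not a measured site. Of 27305 promoters, 0.271% held a match, against 3 of 55 p53 targets with a window (5.45%) and 9 of 359 genes that rose by at least 1 (2.51%). Among tested genes with a window, 59.3% of the 27 with a match were higher and 25.9% lower, against 24% and 28.6% without one. The upstream 250 bases of CXCR2 (chr2:218125778-218126027) and UBASH3B (chr11:122655472-122655721), both among the leading rises, and of AEN (chr15:88621090-88621339), a nuclease gene of the list, are shown because each holds a match, all on the plus strand, with the match in capitals.
CXCR2: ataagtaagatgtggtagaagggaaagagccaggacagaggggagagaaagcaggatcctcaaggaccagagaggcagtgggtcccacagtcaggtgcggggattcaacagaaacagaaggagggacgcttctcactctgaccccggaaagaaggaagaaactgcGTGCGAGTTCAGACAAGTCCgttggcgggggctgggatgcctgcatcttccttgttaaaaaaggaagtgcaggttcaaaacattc
UBASH3B: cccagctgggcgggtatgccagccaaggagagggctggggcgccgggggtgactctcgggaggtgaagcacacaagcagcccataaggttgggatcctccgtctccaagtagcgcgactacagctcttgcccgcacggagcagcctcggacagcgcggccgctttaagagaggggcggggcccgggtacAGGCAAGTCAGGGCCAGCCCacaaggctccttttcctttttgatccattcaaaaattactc
AEN: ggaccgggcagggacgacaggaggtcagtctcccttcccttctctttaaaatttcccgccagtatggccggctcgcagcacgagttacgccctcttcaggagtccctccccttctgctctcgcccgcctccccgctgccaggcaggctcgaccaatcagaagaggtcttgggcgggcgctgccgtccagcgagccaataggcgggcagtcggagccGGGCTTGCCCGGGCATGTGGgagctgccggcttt
The matches began 85, 61 and 34 bases before the start, and each had 2 letters off the element. UBASH3B, a phosphatase gene, had 0.227, 0.142 and 0.104 CPM in DMSO and 2.41, 3.03 and 2.89 CPM at 5 µM, and AEN had 63.7, 63.8 and 62.7 CPM in DMSO and 115 CPM in each library at 5 µM. Both were higher in all 3 libraries at 5 µM than in any DMSO library, and AEN was 1.81-fold higher.

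Mitotic genes moved the other way. These genes build the spindle and kinetochore and are normally transcribed in G2 and mitosis. Of 67 members tested, 62 were lower, against 23.4% of all genes, and 1 was higher, and the median log2 fold change was -0.66. In bulk RNA, fewer cells in mitosis and less RNA per cell cannot be told apart. PLK1 (chr16:23677656-23690367, plus strand, GRCh38), the polo-like kinase of mitotic entry, had 125, 121 and 129 CPM in DMSO, 110, 112 and 111 CPM at 1 µM, and 32.1, 33.1 and 33.5 CPM at 5 µM. The 1 µM libraries lay just below DMSO and the 5 µM libraries far below both, and PLK1 was 3.8-fold lower at 5 µM (log2 fold change -1.93 ± 0.031 SE, adjusted p = 3.08e-34). AURKA, the centrosome kinase, had 107, 104 and 104 CPM in DMSO and 33.7, 33.7 and 35.8 CPM at 5 µM and was 3.04-fold lower. CDC20, the activator of the anaphase-promoting complex, had 147, 148 and 148 CPM in DMSO and 50.6, 47.9 and 47.8 CPM at 5 µM and was 3.03-fold lower. CCNB1, the mitotic cyclin B1, had 263, 261 and 257 CPM in DMSO and 100, 99.4 and 99 CPM at 5 µM and was 2.61-fold lower.

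The size of the fall ranged widely within the list. The motor and kinetochore genes KIF20A, KIF18A, CENPE and CENPA were 2.8-fold, 2.4-fold, 2.36-fold and 2.36-fold lower, and the proliferation markers MKI67 and TOP2A were 1.81-fold and 1.47-fold lower. CDK1, the mitotic kinase, had 443, 411 and 418 CPM in DMSO and 385, 380 and 404 CPM at 5 µM, and FOXM1, a transcription factor of G2 genes, 287, 286 and 287 CPM and 253, 244 and 246 CPM. Both were lower without overlap, but only by 1.09-fold and 1.16-fold. MYBL2, CENPM, CDCA5 and CENPK did not pass the threshold, with log2 fold changes between -0.08 and 0.06, and SPC24, an outer kinetochore subunit, was 1.09-fold higher. PIF1, a DNA helicase outside the list, had the largest fall among uniquely named genes that met the rule, from 11.8, 13.4 and 12 CPM to 2.77, 2.83 and 2.27 CPM (log2 fold change -2.24 ± 0.0995). PSRC1, a spindle protein gene, was 2.67-fold lower. CDC20P1, FAM72B and FAM72C also met the rule but share sequence with CDC20 or with other FAM72 copies, so their counts are uncertain.

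Many promoters of mitotic genes hold the cell cycle homology region (CHR, letters TTTGAA), bound in quiescent cells by the DREAM repressor complex, and CCAAT boxes (letters CCAAT), bound by NF-Y. On either strand the CHR letters were in 68.4% of the 57 mitotic promoters with a window, against 15.4% of all promoters and 9.74% of those of tested genes. CHR and CCAAT letters together were in 52.6% of the mitotic promoters, against 6.08% of all. Over the tested genes, 41.3% of the 511 with both letters were lower and 15.9% higher, against 28% and 24.4% of those without both, and the median log2 fold changes were -0.08 and 0.01. The upstream 250 bases of PLK1 (chr16:23678639-23678888), CDC20 (chr1:43358731-43358980) and CCNB2 (chr15:59104896-59105145), all on the plus strand of GRCh38.p14, show where the CHR letters lie, in capitals on either strand.
PLK1: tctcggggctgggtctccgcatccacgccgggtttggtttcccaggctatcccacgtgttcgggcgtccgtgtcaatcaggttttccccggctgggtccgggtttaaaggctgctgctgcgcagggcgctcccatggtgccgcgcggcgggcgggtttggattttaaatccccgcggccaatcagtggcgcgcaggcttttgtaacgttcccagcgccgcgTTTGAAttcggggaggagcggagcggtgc
CDC20: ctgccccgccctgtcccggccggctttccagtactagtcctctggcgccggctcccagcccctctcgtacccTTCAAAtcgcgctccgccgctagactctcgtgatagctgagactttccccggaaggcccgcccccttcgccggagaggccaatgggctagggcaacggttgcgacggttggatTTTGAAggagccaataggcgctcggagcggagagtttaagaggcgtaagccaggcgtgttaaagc
CCNB2: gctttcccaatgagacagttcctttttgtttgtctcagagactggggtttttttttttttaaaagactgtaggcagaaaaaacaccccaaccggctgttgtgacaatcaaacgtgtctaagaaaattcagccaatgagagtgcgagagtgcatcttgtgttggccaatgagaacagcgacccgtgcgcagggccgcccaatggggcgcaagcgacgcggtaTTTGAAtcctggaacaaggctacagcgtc
In PLK1 and CCNB2 the match began 29 bases before the start, and in CDC20 the matches began 178 and 65 bases before it. CCNB2, cyclin B2, had 104, 101 and 99.1 CPM in DMSO and 60.8, 60.3 and 63.9 CPM at 5 µM, which is 1.64-fold lower.

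Genes of DNA replication and the G1/S transition went both ways. Of 56 members, 13 were higher (23.2%, against 21.6% of all genes) and 18 lower (32.1%, against 23.4%), and the median was -0.01, which was 0.04 with scaling by total count. PCNA, the replication clamp and a known p53 target, had 222, 215 and 217 CPM in DMSO and 293, 291 and 303 CPM at 5 µM, which is 1.36-fold higher. DTL and CDT1, which act in replication licensing, were 1.29-fold and 1.19-fold higher. At the other end DBF4, the activator of the CDC7 kinase, had 93.7, 87.3 and 89.8 CPM in DMSO and 51.8, 51.7 and 55.9 CPM at 5 µM and was 1.7-fold lower. MCM6, a helicase subunit, was 1.38-fold lower. CCNE1, cyclin E1, had 20.1, 18.9 and 18.7 CPM and 18.7, 19.9 and 19.8 CPM, so its groups overlapped, as did those of CDC6.

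**Figure D3:**
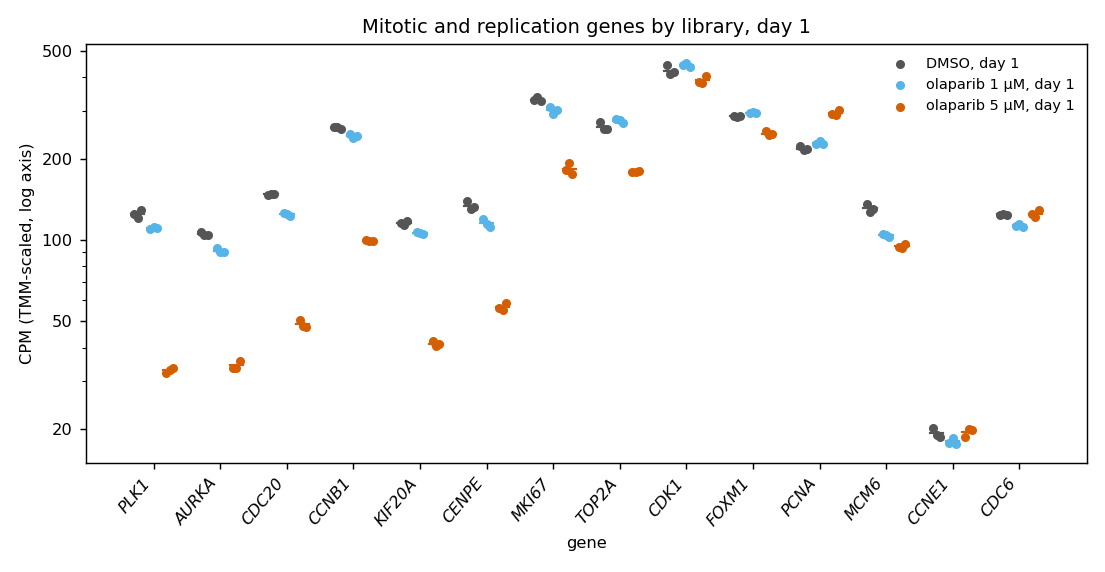
CPM of mitotic genes (PLK1 to FOXM1) and replication genes (PCNA to CDC6) on the x axis in the libraries of day 1, on a log axis. Each point is 1 library, each bar the mean of 3 libraries, and colours mark DMSO, 1 µM and 5 µM olaparib. PLK1 lies just below its DMSO level at 1 µM and at 33.5 CPM or less at 5 µM, while CCNE1 and CDC6 overlap between DMSO and 5 µM.

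Clustered histone genes, whose RNA mostly lacks a poly(A) tail and is only partly caught by the mRNA capture used, were lower in 25 of 45 tested members of 70 (55.6%, against 23.4% of all genes) and higher in 1, with a median of -0.49. H2BC11 had 40, 37.1 and 37.6 CPM in DMSO and 17.3, 16 and 17 CPM at 5 µM and was 2.28-fold lower. Its groups were separate, and several core histone genes such as H4C15 share reads with near-identical copies.

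MYC targets and ribosome biogenesis genes, MYC itself included, were lower in 40 of 40 members, against 23.4% of all genes, with a median of -0.35 and a narrow range from -0.66 to -0.13. LYAR, a nucleolar growth regulator, had 61, 58.3 and 56.8 CPM in DMSO and 36, 38.1 and 37.1 CPM at 5 µM and was 1.58-fold lower. NCL, nucleolin, had 1670, 1620 and 1610 CPM in DMSO and 1190, 1180 and 1180 CPM at 5 µM and was 1.38-fold lower. DKC1, the pseudouridine synthase, was 1.39-fold lower and NOP56, a snoRNP core protein, 1.32-fold. In all 40 members the groups did not overlap, against 26% of all genes with the lower side at 5 µM. The E-box (letters CACGTG, both strands), which MYC and related factors bind, was in 39.4% of the 33 promoters with a window, against 7.43% of all promoters and 10% of those of tested genes. Over the tested genes, 32.8% of those with an E-box were lower and 22.5% higher, against 28.1% and 24.2% of those without one. POLR1G, a subunit of RNA polymerase I, is shown for its E-box in capitals (chr19:45406394-45406643, plus strand, GRCh38.p14), which began 12 bases before the start.
POLR1G: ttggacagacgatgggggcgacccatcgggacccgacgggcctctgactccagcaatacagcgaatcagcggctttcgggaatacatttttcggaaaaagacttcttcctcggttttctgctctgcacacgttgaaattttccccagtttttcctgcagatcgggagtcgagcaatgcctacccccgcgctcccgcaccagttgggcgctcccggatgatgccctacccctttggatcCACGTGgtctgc
Its level was 35.4, 35.2 and 35.2 CPM in DMSO and 25.5, 26.8 and 24.8 CPM at 5 µM, with a log2 fold change of -0.46 ± 0.043.

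Among 105 androgen response genes, 54 were lower (51.4%, against 23.4% of all genes) and 23 higher (21.9%, against 21.6%), with a median of -0.07 and a range from -0.46 to 1.37. With scaling by total count, 46 were lower and 33 higher, when 3380 of all 18502 genes were lower and 5139 higher. KLK3 (chr19:50854915-50860764, plus strand, GRCh38), which encodes prostate-specific antigen, had 1020, 1070 and 1100 CPM in DMSO and 886, 885 and 846 CPM at 5 µM. The groups did not overlap, and KLK3 was 1.22-fold lower (log2 fold change -0.29 ± 0.022, adjusted p = 6.93e-11). FKBP5, a co-chaperone of steroid receptors, was 1.07-fold lower.

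Other androgen response genes did not follow. KLK2, the neighbouring kallikrein, had 65.6, 69.3 and 70.2 CPM in DMSO and 66.5, 66.9 and 64.6 CPM at 5 µM. Its groups overlapped and it did not pass the threshold (adjusted p = 0.157, and 0.0347 without replicate 1 of DMSO). TMPRSS2, a membrane serine protease, had 83, 80.3 and 85.8 CPM in DMSO and 95.6, 97 and 92.4 CPM at 5 µM and was 1.14-fold higher (adjusted p = 2.83e-07). KLK4 and NCOA4 were each 1.09-fold higher. The members with the largest rises were HSD17B14, a steroid dehydrogenase present at no more than 1.08 CPM, MERTK, a receptor tyrosine kinase (2.03-fold), and ALDH1A3, a retinaldehyde dehydrogenase (1.88-fold). The largest falls were in genes of secretion and lipid handling, SEC24D (1.38-fold lower), ACSL3 (1.33-fold) and SPCS3 (1.31-fold).

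**Figure D4:**
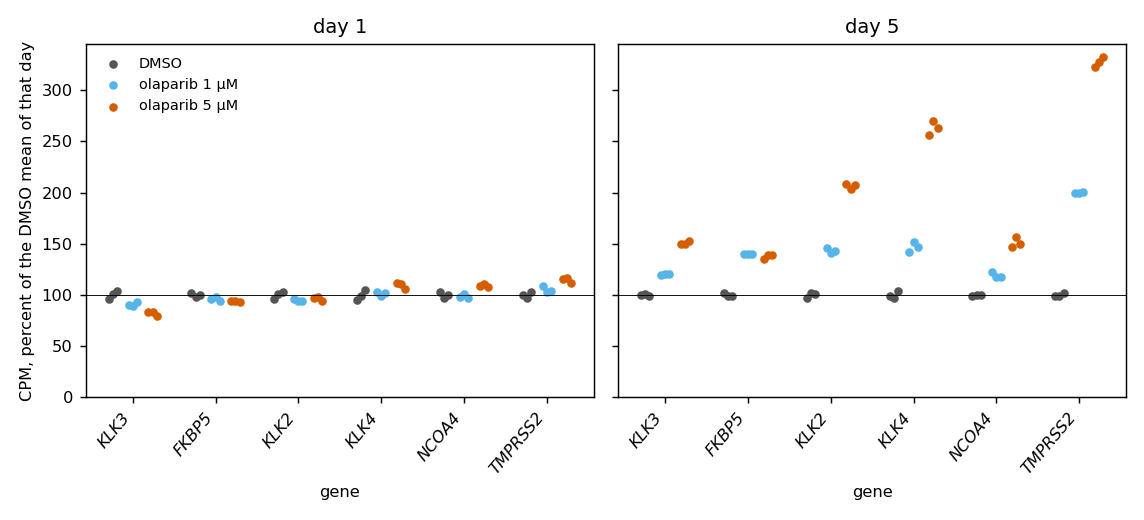
CPM of 6 androgen-related genes (x axis) as a percent of the DMSO mean of the same day, at day 1 (left) and day 5 (right). Each point is 1 library and colours mark DMSO, 1 µM and 5 µM olaparib. At day 1 the means at 5 µM lie between 82% (KLK3) and 114% (TMPRSS2) of DMSO, and at day 5 between 138% (FKBP5) and 327% (TMPRSS2).

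Homologous recombination and Fanconi anemia genes, which repair breaks at forks, went both ways, with 12 of 42 higher (28.6%, against 21.6% of all genes), 13 lower (31%, against 23.4%) and a median of -0.01. With scaling by total count 14 were higher and 7 lower, when 5139 of all 18502 genes were higher and 3380 lower. BRCA1 had 106, 103 and 102 CPM in DMSO and 117, 121 and 117 CPM at 5 µM, so the groups were separate and BRCA1 was 1.14-fold higher (adjusted p = 1.27e-06). BRCA2 had 103, 103 and 102 CPM in DMSO and 95, 95.7 and 102 CPM at 5 µM. Its log2 fold change was -0.07 ± 0.031 (adjusted p = 0.0451), and the call was lost when any of these libraries except replicate 3 at 5 µM was left out (adjusted p from 0.0685 to 0.203) and with scaling by total count (0.509). BRIP1, a helicase that works with BRCA1, was 1.32-fold higher, RAD51C 1.19-fold higher, and FANCM, the fork translocase, 1.28-fold lower.

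Of 42 tested genes of excision repair, mismatch repair and end joining, 7 were higher (16.7%, against 21.6% of all genes) and 15 lower (35.7%, against 23.4%), with a median of -0.03. The number higher was 4 without replicate 2 of DMSO or replicate 1 at 5 µM. With scaling by total count 12 were higher and 12 lower, when 5139 of all 18502 genes were higher and 3380 lower. LIG1, the replicative DNA ligase, had 25.1, 26.4 and 25.4 CPM in DMSO and 51.3, 51.8 and 51.4 CPM at 5 µM and was 2.01-fold higher, while NEIL3, a glycosylase, was 1.59-fold lower. Among 28 genes of the checkpoint kinases and their partners, 4 were higher (14.3%) and 13 lower (46.4%), with a median of -0.06. With scaling by total count 7 were higher and 11 lower. H2AX, the histone variant phosphorylated at breaks, had 154, 160 and 157 CPM in DMSO and 97.2, 93 and 103 CPM at 5 µM. H2AX, CDC25B, a phosphatase, and WEE1, the CDK1 inhibitor kinase, were 1.61-fold, 1.45-fold and 1.41-fold lower.

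The drug's own targets changed little. PARP1 had 684, 661 and 660 CPM in DMSO and 589, 583 and 583 CPM at 5 µM, which is 1.14-fold lower, and PARG, which removes ADP-ribose chains, was 1.12-fold lower. PARP2 had 48.2, 46.1 and 45.9 CPM in DMSO and 43.2, 46 and 45.4 CPM at 5 µM, with overlapping groups. Over the family 9 of 21 tested members were higher (42.9%, against 21.6% of all genes) and 4 lower (19%, against 23.4%). PARP14, an interferon-inducible member, had 7.93, 8.73 and 8.58 CPM in DMSO and 17.3, 16.6 and 16.9 CPM at 5 µM and was 2.01-fold higher.

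Interferon-stimulated and DNA-sensing genes were higher in 22 of 42 tested members (52.4%, against 21.6% of all genes) and lower in none, with a median of 0.35, mostly at low levels. STING1, the adaptor of cytosolic DNA sensing, had 1.73, 1.96 and 1.61 CPM in DMSO and 3.35, 3.51 and 3.64 CPM at 5 µM and was 1.97-fold higher. IFITM3, an antiviral membrane protein, was 1.47-fold higher and IRF1, a transcription factor, 1.89-fold. IFIT3 did not exceed 0.236 CPM in DMSO or 0.563 CPM at 5 µM. IFIT1, a classical interferon response gene, had a log2 fold change of -0.69 and did not pass the threshold (adjusted p = 0.0773), nor did MX1 or IRF7. In the antigen presentation list 11 of 18 tested members were higher (61.1%) and 4 lower (22.2%, against 23.4% of all genes). TAP1, the peptide transporter, had 6.93, 7.43 and 7.25 CPM in DMSO and 19, 17.1 and 17.6 CPM at 5 µM and was 2.48-fold higher.

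**Figure D5:**
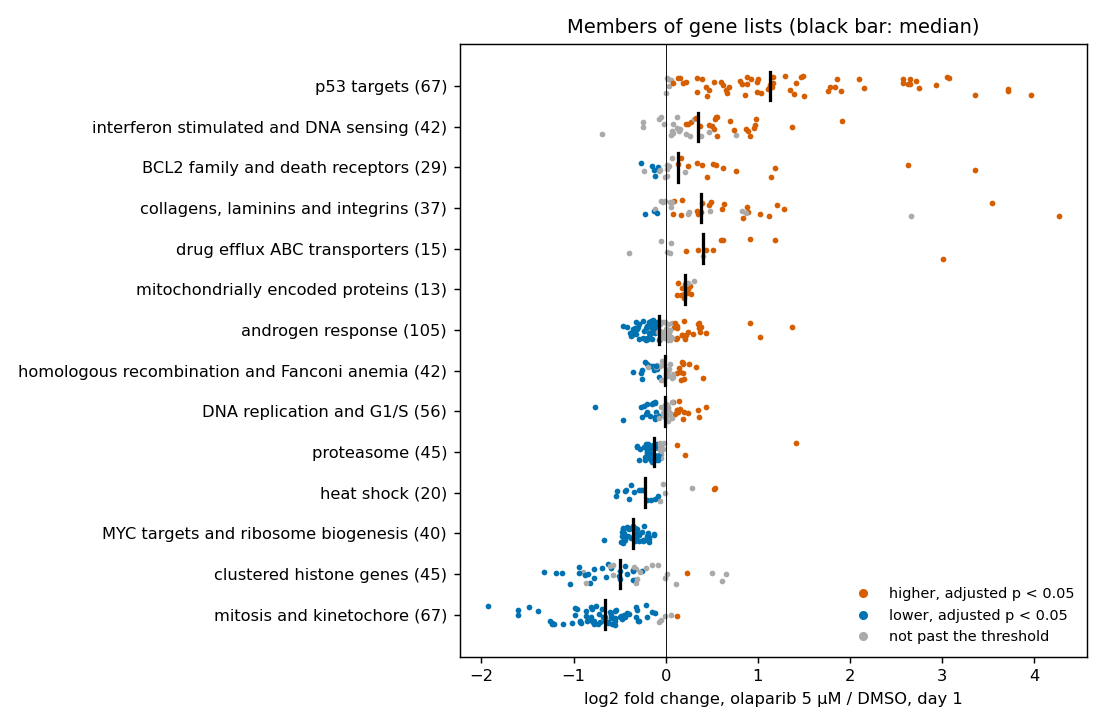
Log2 fold change of olaparib 5 µM over DMSO at day 1 (x axis) for each tested member of 14 gene lists (y axis, number of members in brackets). Each point is 1 gene, orange and blue mark members past an adjusted p of 0.05, grey the others, and the black bar is the median. The p53 targets lie to the right with a median of 1.13, mitotic genes to the left with a median of -0.66, and replication and homologous recombination genes around 0.

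Protein-folding and biosynthetic lists leaned lower by small amounts. Heat shock genes were lower in 14 of 20 members (70%, against 23.4% of all genes) and higher in 2 (10%, against 21.6%), and their median was -0.22. HSPA8, the constitutive HSP70, had 2740, 2650 and 2650 CPM in DMSO and 1850, 1810 and 1870 CPM at 5 µM and was 1.46-fold lower, whereas HSPA4L, another member of the HSP70 superfamily, was 1.43-fold higher. Secretory and ER chaperone genes were lower in 23 of 32 members (71.9%), proteasome genes in 33 of 45 (73.3%) and aminoacyl-tRNA synthetases in 25 of 37 (67.6%), with 3 members higher in each list and medians of -0.15, -0.13 and -0.11. Cholesterol synthesis genes were lower in 17 of 25 tested members (68%) and fatty acid synthesis genes in 13 of 23 (56.5%), with 4 higher in each list. FASN, fatty acid synthase, had 1200, 1210 and 1250 CPM in DMSO and 895, 843 and 895 CPM at 5 µM and was 1.39-fold lower. LDHA, which makes lactate, had 1010, 986 and 990 CPM in DMSO and 674, 667 and 687 CPM at 5 µM and was 1.47-fold lower. Each of these genes was separated between the groups.

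Between 1 and 5 µM at day 1 the direct test passed for 5324 genes (28.8%), with 2375 higher (12.8%) and 2949 lower (15.9%) at 5 µM. Scaling by total count turned this to 2930 higher and 2402 lower. Against DMSO, 1 µM passed for 15.8% of genes, 6.30% higher and 9.52% lower. The effects of 1 and 5 µM share the same DMSO libraries, so their values are set side by side only. For p53 targets the median log2 fold change against DMSO was 0.42 at 1 µM, with 50 of 67 members higher, and 1.13 at 5 µM, and the direct step passed for 60 members, all higher. CDKN1A had 1.87 at 1 µM and 3.71 at 5 µM, and the step between them was 1.85 ± 0.023. For mitotic genes the median was -0.07 at 1 µM, where 25 members were lower and 3 higher, and -0.66 at 5 µM, and the step passed for 62 members, all lower. PLK1 had -0.17 at 1 µM and -1.93 at 5 µM, and CCNB1 -0.10 and -1.39. For ribosome biogenesis genes the medians were -0.14 at 1 µM, with 34 of 40 lower, and -0.35 at 5 µM.

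The largest steps down from 1 to 5 µM were those of PIF1, PLK1, AURKA, KIF20A and CDC20, with log2 differences between -2.19 and -1.35. The largest steps up included CXCR2 at 2.83, APOBEC3C, a cytidine deaminase gene, at 2.48 and TRIM22 at 2.42. APOBEC3C had 0.341, 0.425 and 0.286 CPM in DMSO, 0.821, 1.01 and 0.705 CPM at 1 µM and 4.94, 4.61 and 4.64 CPM at 5 µM. RN7SL1 and RN7SL2 also met the rule with 4.20 and 4.36, and without replicate 3 at 5 µM their values were -0.0118 and -0.0831. Their calls (adjusted p = 0.0393 and 0.0441) were also lost with a replicate block (3.27, adjusted p = 0.16, and 3.31, adjusted p = 0.192), without the filter on low counts, with only the 9 libraries of day 1 and without any 1 library at 1 µM (adjusted p from 0.0761 to 0.143 in these fits).

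The effect of 5 µM against the DMSO of the same day was also compared between days, as a difference of differences. It differed for 10156 genes (54.9%), of which 5035 had a higher (27.2%) and 5121 a lower effect (27.7%) at day 5. Under scaling by total count the split was 3450 higher and 6926 lower, and the median difference over all genes was -0.15 in place of -0.02. Against its own DMSO, 5 µM at day 5 passed for 68.2% of genes, 34.4% higher and 33.9% lower. Among p53 targets the median log2 fold change was 1.13 at day 1 and 0.98 at day 5, and 16 members had a higher (23.9%) and 29 a lower effect (43.3%) at day 5, which were 10 and 39 with scaling by total count. CDKN1A had 3.71 at day 1 and 4.15 at day 5, and MDM2 1.13 and 0.72. PMAIP1 changed direction, from 0.62 at day 1 to -1.29 at day 5 (difference -1.91 ± 0.13 SE, adjusted p = 1.02e-13).

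Cell-cycle genes separated the days. The median over mitotic genes was -0.66 at day 1 and -2.77 at day 5, and over replication genes -0.01 and -1.79. For all 67 and all 56 members the effect was lower at day 5, against 27.7% of all genes. CDC6 had 0.01 at day 1 and -2.32 at day 5, and RRM2, which makes deoxyribonucleotides, 0.03 and -2.54. Homologous recombination genes had a median of -0.01 at day 1 and -1.51 at day 5. The effect was lower at day 5 for 34 of 42 members (81%), including BRCA1 (0.19 and -2.27). In androgen response genes the order was the opposite, with medians of -0.07 and 0.29. The effect at day 5 was higher for 70 of 105 members (66.7%, against 27.2% of all genes) and lower for 22 (21%). With scaling by total count it was higher for 59 (56.2%, against 18.6%) and lower for 30 (28.6%, against 37.4%). KLK3 had -0.29 at day 1 and 0.59 at day 5 (difference 0.88 ± 0.031, adjusted p = 1.04e-17). TMPRSS2, which was higher already at day 1, had 0.19 and 1.71. In 22 androgen response members the effect was lower at day 1, higher at day 5 and different between the days, each past the threshold, and in 2 members the reverse held. Over all genes tested, these counts were 762 and 630.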

How the data were processed

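RNA of the time course (18 libraries in 6 groups of 3) was analysed, 34214001 to 44893664 counts each. Reads had been trimmed by Trim Galore, mapped on GRCh38 by STAR and quantified by Salmon, and the authors deposited estimated counts as whole numbers, not normalized. How these were rounded and whether strand was used are not given in the sources used here. Symbols and coordinates came from GENCODE, in a release older than that of the study, and 521 of 63187 genes had no symbol (0.122% of counts). edgeR 4.0.16 (R 4.3.3, limma 3.58.1) was used with TMM scaling, filterByExpr and 1 quasi-likelihood fit without covariates, giving CPM, log2 fold changes with SE, and p-values adjusted by Benjamini-Hochberg over 18502 genes. Scripts were tested on simulated data. The replicate number was not taken as a pair. The rule for named genes took the 12 largest rises and falls with at least 100 mean counts in the higher group, up to 3 per list, 5 each way for dose step and day, and a fixed set. Members, the 41 lists and rules were chosen with earlier results of these data known, and other members named were picked after their values were seen. Some genes are not reported here. Alternatives were other scalings and filters, DESeq2 1.42.0, fewer libraries, a replicate block, a fold minimum and leaving out each library.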

Additional observations from a re-analysis of the deposited data

Results flagged for a closer look

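The effect of olaparib 5 µM against DMSO differed between day 5 and day 1, by the test of that difference itself, for 10156 genes, 5035 with a higher and 5121 with a lower effect at day 5 (adjusted p under 0.05, 3 libraries per group). These were 3450 and 6926 with scaling by total count. Both effects have their own DMSO libraries.

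Over all genes tested, 27.2% had a higher and 27.7% a lower effect at day 5, and with scaling by total count 18.6% and 37.4%. Members with a higher and a lower effect numbered 16 and 29 of 67 p53 targets, 0 and 67 of 67 mitotic genes, 0 and 56 of 56 DNA replication genes and 2 and 34 of 42 homologous recombination genes. They numbered 70 and 22 of 105 androgen response genes and 26 and 7 of 45 clustered histone genes. Of 42 interferon-stimulated genes 16 had a higher (38.1%) and 9 a lower effect (21.4%). Of 40 ribosome biogenesis genes 14 had a higher (35%) and 10 a lower effect (25%), which turned to 7 and 23 with scaling by total count.

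The differences that rose most were 6.44 for TRIM43, 6.37 for PRAMEF12, 6.1 for TRIM49B, 4.56 for TRIM49C and 4.47 for TRIM43B, on the log2 scale, day 5 minus day 1. None of these genes passed at day 1, where each stayed at or below 0.425 CPM, and the TRIM43 and TRIM49 genes have near-identical copies that share reads. TRIM43B did not pass without replicate 2 of DMSO at day 1 (3.69, adjusted p = 0.182), nor TRIM49B without replicate 3 of that group (2.95, adjusted p = 0.871). The differences that fell most were -7.94 for RN7SL2, -6.88 for RN7SL1, -3.91 for CA8, -3.28 for NIBAN1 and -3.25 for DMBX1. Without replicate 3 of 5 µM at day 1, RN7SL2 had -3.51 (adjusted p = 0.0805) and RN7SL1 -2.67 (adjusted p = 0.0932). CA8, a carbonic anhydrase-related protein gene, had 7.19, 7.81 and 8.01 CPM in DMSO and 7.68, 8.07 and 8.06 CPM at 5 µM at day 1, so its groups overlapped. NIBAN1, a stress-regulated gene, had 27.4, 28.2 and 30.7 CPM and 29.7, 30.8 and 28.9 CPM and overlapped too.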

How the results depend on the processing

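Counts of genes past the threshold moved by over 1.5 times in 1 alternative. With a minimum absolute log2 fold change of 1, the counts were 659 for 5 µM against DMSO at day 1 (581 higher, 78 lower), 287 for the dose step (245 and 42) and 2243 for the difference between days (845 and 1398). Counts of list members moved by over 1.5 times in some lists named above. Scaling by total count also moved the counts of all genes at day 1, to 5139 higher and 3380 lower. With scaling by total count, 7 homologous recombination genes were lower in place of 13, 2 death genes in place of 5 and 1 collagen, laminin or integrin gene in place of 3, the last also without replicate 3 of DMSO. With the same scaling, higher members numbered 59 in place of 24 for ribosomal proteins, 12 in place of 7 for excision repair, mismatch repair and end joining, 8 in place of 3 for aminoacyl-tRNA synthetases, 7 in place of 4 for checkpoint genes and 5 in place of 3 for secretory genes. Lower ribosomal protein genes numbered 3 with that scaling and 8 with RLE scaling or DESeq2, in place of 5. Only 1 aminoacyl-tRNA synthetase was higher with DESeq2, without replicate 3 of DMSO or without replicate 1 at 5 µM. Over these alternatives 0 to 2 mitotic genes and 0 to 1 histone genes were higher, and 0 to 1 interferon-stimulated genes lower, the 1 without replicate 2 at 5 µM. DESeq2 called 7664 genes for 5 µM against DMSO at day 1, and RLE scaling 8341. Leaving out 1 library at a time gave 7592 to 7852 genes for 5 µM against DMSO, 4443 to 4830 for the dose step and 9739 to 9895 for the difference between days. In the same runs 61 to 63 p53 targets were higher and 61 to 63 mitotic genes lower. RN7SL1 in the dose step ranged from -0.0118 to 4.76 and RN7SL2 from -0.0831 to 4.92, the negative values without replicate 3 at 5 µM.

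Whether the replicate numbers pair the libraries is not given by the labels. Deviations of DMSO and 5 µM libraries with the same number at day 1 correlated at -0.0162, 0.0825 and 0.0175 across genes, which are not independent. For DMSO and 1 µM at day 1 these correlations were 0.103, -0.0146 and 0.0853. They cannot settle a pairing, because each deviation is taken from a mean of only 3 libraries. With the replicate number as a block, 8177 genes passed for 5 µM against DMSO, 8099 of them shared with the fit without it. RN7SL1 and RN7SL2 lost their calls for the dose step under the block (adjusted p = 0.16 and 0.192). F8A3 and F8A2 lost theirs under the block (adjusted p = 0.119 and 0.122), without the filter on low counts (0.0925 and 0.0852) and when any 1 library was left out (0.0712 to 0.0989).

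With 3 libraries per group of 1 cell line, only the spread between these libraries is known. Whether it includes a spread between cultures is not given by the labels. Depth limits genes such as CXCR2, which had 3 to 6 counts per DMSO library.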

Other observations

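Matrix and adhesion genes leaned higher after 1 day at 5 µM. Of 37 tested collagen, laminin and integrin genes, 21 were higher and 3 lower, with a median log2 fold change of 0.39, against 21.6% higher and 23.4% lower among all genes. COL17A1, a hemidesmosomal collagen, and COL5A1, a fibrillar collagen, had log2 fold changes of 4.27 and 3.54. COL17A1 was not among the largest rises named above, whose rule asks for at least 100 mean counts. ITGA3, a laminin receptor subunit, had 5.91, 6.18 and 6.03 CPM in DMSO and 12.6, 12.7 and 14.2 CPM at 5 µM. The 7 fibroblast markers summed to 13.8 to 14.5 CPM in DMSO and to 17.2 to 19.4 CPM at 5 µM, and the 4 endothelial markers to 10.2 to 11.3 CPM and 13.1 to 15.2 CPM. The fibroblast sum came mostly from COL1A1, with means of 12.3 and 16.1 CPM, while DCN and LUM had no count, and its part in the result was not tested. Drug efflux transporters were higher in 9 of 15 tested members (60%, against 21.6% of all genes) and lower in none, with ABCA1, a cholesterol exporter, at 0.369, 0.354 and 0.442 CPM in DMSO and 2.97, 3.51 and 2.97 CPM at 5 µM. LIF, a cytokine of the interleukin-6 family, had 1.68, 1.27 and 1.48 CPM in DMSO and 15.5, 15.8 and 16.4 CPM at 5 µM. IGF2, a growth factor, had 1.17, 1.11 and 1.14 CPM in DMSO and 8.81, 9.26 and 8.74 CPM at 5 µM. In ITGA3, ABCA1, LIF and IGF2 the groups did not overlap, as in 51.6% of all genes, and these genes were chosen by their values.

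Among long noncoding RNAs 7 of 22 tested members were higher (31.8%, against 21.6% of all genes) and 5 lower (22.7%, against 23.4%). PURPL, a p53-regulated RNA, had 3.55, 3.28 and 3.46 CPM in DMSO and 18.5, 17.8 and 16.2 CPM at 5 µM, and PINCR, another p53-induced RNA, had a log2 fold change of 4.97. PINCR was not among the largest rises named above, whose rule asks for at least 100 mean counts. NEAT1, the scaffold of paraspeckles, had 569, 542 and 540 CPM in DMSO and 1030, 1020 and 1040 CPM at 5 µM and was 1.87-fold higher. The snoRNA host genes SNHG1 and SNHG5 had -0.50 and -0.44. Genes of the mitochondrial genome were higher in 11 of 13 members (84.6%), with a median of 0.21. Ribosomal protein genes were higher in 24 of 84 tested members (28.6%) and lower in 5 (5.95%). With scaling by total count 59 were higher and 3 lower, when 5139 of all 18502 genes were higher and 3380 lower.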
